A study of Mus musculus with 4 samples.

Results

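The levels of 10 genes of canonical Wnt signaling at the blood-brain barrier were measured in brain vascular-associated cells of mice after chronic social defeat (CSD) or home cage (HC) housing. The 10 genes, Lef1, Tcf7, Foxq1, Apcdd1, Axin2, Nkd1, Fzd4, Fzd6, Adgra2 and Reck, were chosen by symbol from the 31053 genes of the deposited count matrices, and all 10 were present. The cells came from 4 single-cell libraries (CSD 1 and 2, HC 1 and 2). Each held brain cells pooled from 4 male wild-type C57BL/6 mice and enriched with beads against CD31, a surface protein of endothelial cells (EC). CSD mice lived for 14 days beside an aggressive CD-1 mouse behind a clear partition and met it without the partition once a day, and HC mice were kept as pairs across such a partition, never removed, for the same time. The labels do not name the HC partner, whereas the study's methods give a CD-1 mouse. A library is the replicate, so n = 2 per condition, and p-values for CSD against HC measure the spread between these pools. Tests between cell classes take out each library's own level, so their p-values measure how class differences vary among the 4 libraries. The CSD effect compared between classes was tested in the same way. After filters on unique molecular identifiers (UMIs, each counting 1 captured RNA molecule), genes and mitochondrial UMIs, 14415 cells remained, between 2553 and 4934 per library.

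Wnt ligands bind Frizzled receptors together with a low-density lipoprotein receptor-related co-receptor, which stops the destruction of β-catenin and lets it enter the nucleus, where it binds transcription factors of the TCF/LEF family. In brain EC the ligands Wnt7a and Wnt7b, made by glia and neurons, signal through a complex that needs Reck and Adgra2 (also called Gpr124), and the ligand norrin, the product of Ndp, signals through Fzd4. This signaling is known for building and keeping the barrier. Lef1 and Tcf7 are TCF/LEF factors, Foxq1 is a forkhead transcription factor enriched in brain EC, and Axin2, Nkd1 and Apcdd1 are target genes whose products restrain the pathway in turn.

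All 10 genes are protein-coding. In the GRCm38 build with GENCODE M21 annotation, the 9 whose positions are given here lie at chr3:131110471-131224356 (Lef1, + strand), chr11:52252371-52283014 (Tcf7, - strand), chr13:31556134-31560976 (Foxq1, +), chr11:108920349-108950783 (Axin2, +), chr8:88521354-88594884 (Nkd1, +), chr7:89404355-89413134 (Fzd4, +), chr15:39006034-39038188 (Fzd6, +), chr8:27085583-27123436 (Adgra2, +) and chr4:43875530-43944806 (Reck, +). Start-site windows of 300 bases, from 250 before to 50 after an annotated start, are used here for 6 of the 10 genes (RefSeq, GRCm38.p6), as 10 windows in all. A window each of Lef1, Fzd4 and Nkd1 is shown because these genes were lower in arterial than in capillary EC, as described further on, and that of Reck because its level in both did not differ by the same test. Lef1 has further windows, and those of Tcf7, also lower in arterial EC, are not shown. The Nkd1 window lies inside the gene, beyond the gene start given above. Each window shown is printed 5′ to 3′ on the strand of its gene, at chr3:131110047-131110346, chr7:89404116-89404415, chr8:88527383-88527682 and chr4:43875280-43875579, and capitals mark the TCF/LEF core CTTTG or its reverse complement CAAAG.
Lef1: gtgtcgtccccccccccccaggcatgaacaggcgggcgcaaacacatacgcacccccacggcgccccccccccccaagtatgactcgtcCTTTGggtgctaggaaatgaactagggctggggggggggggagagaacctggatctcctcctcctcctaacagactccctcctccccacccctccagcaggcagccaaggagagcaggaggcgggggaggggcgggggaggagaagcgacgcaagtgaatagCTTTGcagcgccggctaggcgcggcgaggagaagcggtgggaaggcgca
Fzd4: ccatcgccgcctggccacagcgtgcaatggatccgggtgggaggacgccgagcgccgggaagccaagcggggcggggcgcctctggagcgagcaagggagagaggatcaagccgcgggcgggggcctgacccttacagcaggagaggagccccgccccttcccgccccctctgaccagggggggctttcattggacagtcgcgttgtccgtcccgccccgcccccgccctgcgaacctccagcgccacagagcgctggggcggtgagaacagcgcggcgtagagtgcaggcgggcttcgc
Nkd1: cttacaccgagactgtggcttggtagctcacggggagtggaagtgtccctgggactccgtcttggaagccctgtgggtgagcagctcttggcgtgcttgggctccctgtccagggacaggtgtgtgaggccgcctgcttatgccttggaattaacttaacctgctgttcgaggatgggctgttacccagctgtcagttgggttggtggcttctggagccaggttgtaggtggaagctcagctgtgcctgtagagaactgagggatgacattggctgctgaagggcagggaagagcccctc
Reck: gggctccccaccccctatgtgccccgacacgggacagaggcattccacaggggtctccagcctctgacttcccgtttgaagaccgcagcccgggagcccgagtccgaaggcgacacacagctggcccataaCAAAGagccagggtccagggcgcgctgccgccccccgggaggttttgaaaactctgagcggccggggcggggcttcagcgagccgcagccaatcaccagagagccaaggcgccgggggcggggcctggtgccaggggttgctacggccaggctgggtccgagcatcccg

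The longer TCF/LEF motif CTTTGAT, read on both strands, was in none of the 10 windows and in 3.73% of all 32851 windows. The core was in 5 of the 10 windows and in 53.9% of all windows, and every hit of the longer motif also holds the core. All 4 Lef1 windows and the Reck window held the core, and the Fzd4, Nkd1, Tcf7 and Axin2 windows did not. These windows hold little of the sequence that can control a gene, and a match or its lack says only which letters are there.

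Cells were grouped by clustering in which the 10 genes and 85 other Wnt pathway genes were left out of the variable genes, and a cluster was named from markers. A class name therefore stands for cells like that type. EC made up 4453 cells, of which 2654 were capillary, 438 arterial, 161 venous and 39 fenestrated, 588 formed a cluster with high immediate early genes (IEG+ EC), and 573 had no segment. The other classes used here were microglia (4395 cells), choroid plexus epithelium (1246), pericytes (659), arterial smooth muscle cells (SMC, 509), astrocytes (401), ependymal cells (217), T cells (158), fibroblasts (129), B cells (97) and oligodendrocyte precursor cells (OPC, 74), and 1927 cells stayed unnamed. Leading genes of the B cell class were mixed, with Igkc and Cd79a beside Sox11, Stmn1 and Top2a, and the other clustering named no B cells. The 9 EC markers summed to between 20154 and 23942 counts per 1000000 UMIs (CPM) in EC. The total UMIs per library ranged from 27297599 to 30361474, pairs of libraries shared 0 to 9 cell barcodes, and Scrublet marked 4 to 73 doublets per library. CSD 2 stood apart: 32.6% of its UMIs were in cells against 51.8% to 56.8% in the others, and the mitochondrial limit removed 5208 of its barcodes, so counts are also given without it where they change.

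An EC class had the highest mean level of 8 of the 10 genes, the exceptions being Nkd1, highest in arterial SMC, and Tcf7, highest in T cells. Lef1 was at 327, 405, 305 and 398 CPM in all EC of CSD 1, CSD 2, HC 1 and HC 2 (359 ± 50.2, SD, n = 4), against 148 ± 7.77 in pericytes, 24.3 ± 5.29 in arterial SMC, 32.6 ± 13.2 in astrocytes and 3.43 ± 3.50 in microglia. Foxq1 was at 409, 563, 438 and 547 CPM in EC (489 ± 77.2), and the highest pericyte library reached 151. Neither gene overlapped between EC and any of these classes. Each UMI is counted once near the 3′ end, whatever the length of the RNA. CPM values are compared here between classes and not between genes.

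**Figure D1:**
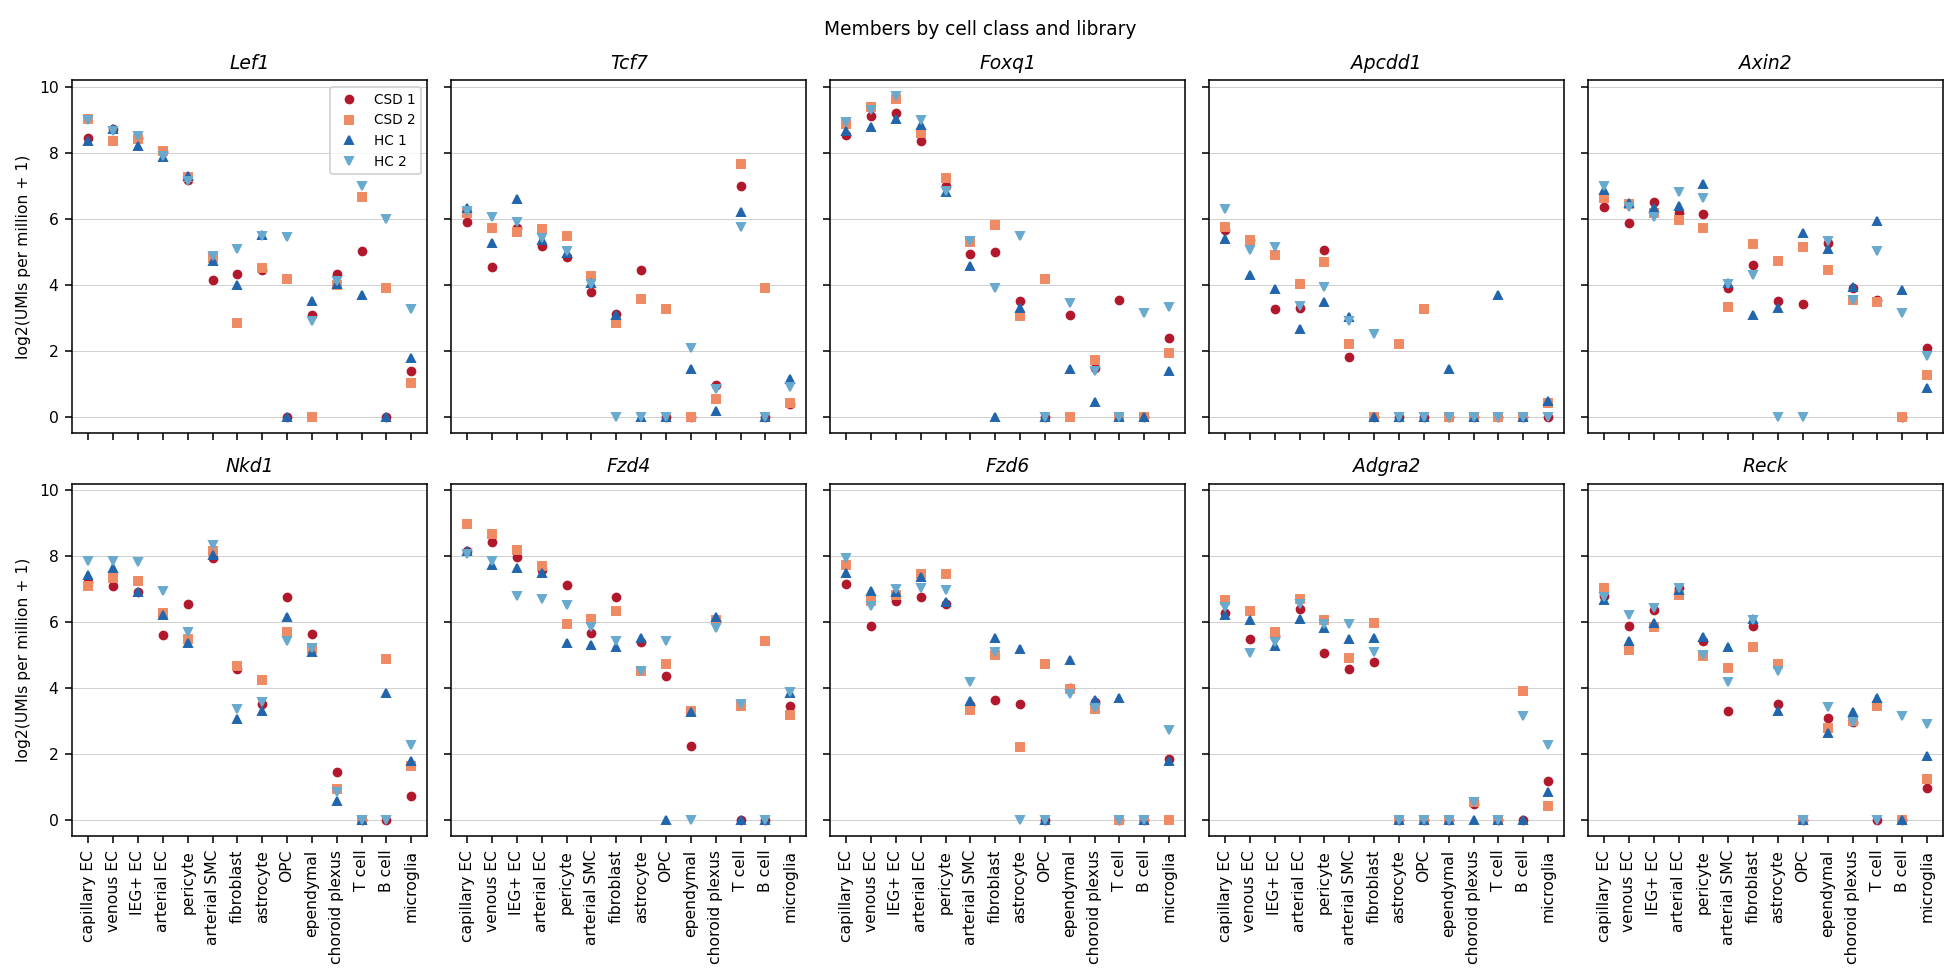
Level of each of the 10 genes, as log2(CPM + 1), in 14 cell classes, with 1 point per library (circles CSD 1, squares CSD 2, upward triangles HC 1, downward triangles HC 2). Most genes step down from the EC classes on the left to microglia on the right, whereas Nkd1 was highest in arterial SMC (278 ± 33.9) and Tcf7 had its highest mean in T cells (113 ± 66.4).

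Among the receptors, Fzd4, the receptor of norrin, was at 268, 389, 227 and 199.6 CPM in EC (271 ± 83.7), with 82.6 ± 43.0 in pericytes, 66.7 ± 33.3 in fibroblasts and 64.0 ± 5.96 in choroid plexus. Adgra2 was at 62.4, 82.9, 65.1 and 71.2 CPM in EC (70.4 ± 9.14) and at 53.3 ± 14.6 in pericytes, 41.4 ± 15.2 in fibroblasts and 39.0 ± 16.8 in arterial SMC. It had no UMI in 577410 astrocyte UMIs, which puts the EC level at least 13.6-fold above the 3-count floor of that class over all libraries. Its partner Reck was at 99.2, 95.9, 85.4 and 100.1 CPM in EC (95.1 ± 6.78), at 56.8 ± 13.9 in fibroblasts and at 37.1 ± 7.51 in pericytes.

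Among the target genes, Axin2, a scaffold of the destruction complex, was at 89.4 ± 10.2 CPM in EC and 87.3 ± 34.3 in pericytes, and the libraries overlapped (78.5, 83.9, 93.9 and 101 against 69.5, 52.0, 131 and 96.8). Nkd1, which binds Dishevelled, was at 247, 280.1, 260.0 and 324 CPM in arterial SMC, above every EC value (118, 134, 146 and 205). Apcdd1, a membrane inhibitor of the pathway, was at 35.7 ± 10.2 CPM in EC and 20.3 ± 10.1 in pericytes, and had no UMI in 26335746 choroid plexus UMIs, so EC was at least 309-fold above that floor. Tcf7, which T cells use in their development, was at 127, 201, 72.0 and 52.8 CPM in T cells and at 45.2, 61.8, 66.7 and 64.2 in EC.

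In the order of class means, some steps exceeded the spread of the libraries. This order covers classes with at least 10 cells in every library, so fenestrated EC, described further on, are left out. Lef1 overlapped from each of these EC classes to the next, and the lowest of them, arterial EC, lay above pericytes without overlap, as did Foxq1. Axin2 overlapped from class to class through these EC classes and pericytes and then dropped to ependymal cells (32.7 ± 8.37 CPM) without overlap. Fzd6 did so through EC and pericytes down to venous EC, with fibroblasts below it (29.9 ± 13.7), and Tcf7 down to pericytes, with arterial SMC below them (15.4 ± 2.19). Adgra2 overlapped from arterial EC down to arterial SMC. Fzd4 overlapped between all neighbours in its order. Apcdd1 in capillary EC (40.9 to 77.6 CPM) did not overlap the next class mean, venous EC (18.7 to 40.2), but did overlap EC with no segment (12.4 to 46.6).

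In 1 fit of all 4 libraries (edgeR quasi-likelihood test, library as a block, Benjamini-Hochberg adjustment over 11772 genes), all 10 genes were higher in EC than in microglia, astrocytes and choroid plexus. These shares stand beside 61.4%, 45.2% and 74.9% of all genes called in either direction in those comparisons. Of the 11772 genes, 3557, 3106 and 4559 were called as higher in EC. Against microglia the log2 fold changes ran from 4.24 for Fzd4 to 6.75 for Apcdd1. The Apcdd1 value rests on 2 UMIs in 10735523 microglial UMIs, under the 3-count floor, so its size is uncertain. Against choroid plexus the difference was smallest for Fzd4 (1.18 ± 0.17, SE, adjusted p = 5.61e-08).
Against arterial SMC 9 genes were higher in EC and Nkd1 was lower (-1.13 ± 0.15, adjusted p = 3.35e-08), with 45.4% of all genes called. Adgra2 had the smallest positive difference (0.67 ± 0.22, adjusted p = 0.0127), and its call was lost without CSD 1 (adjusted p = 0.13), without CSD 2 (adjusted p = 0.11) and among cells with at least 1000 UMIs (adjusted p = 0.131).
Against pericytes 7 of the 10 genes were higher in EC, beside 26.4% of all genes called in either direction and 1819 of 11772 called as higher. The 7 were led by Foxq1 (2.14 ± 0.19, adjusted p = 2.65e-12), Fzd4 (1.87 ± 0.23, adjusted p = 9.47e-09), Nkd1 (1.59 ± 0.22, adjusted p = 2.00e-07) and Reck (1.58 ± 0.28, adjusted p = 1.34e-05). The difference did not pass for Axin2 (0.23 ± 0.20, adjusted p = 0.47), Fzd6 (0.44 ± 0.21, adjusted p = 0.114) or Adgra2 (0.55 ± 0.25, adjusted p = 0.115). With no filter on low counts Fzd6 (0.54, adjusted p = 0.0193) and Adgra2 (0.65, adjusted p = 0.0292) passed, and over the alternatives 6 to 9 of the 10 were called. Calls over all genes were 3105 here and ran from 2459 to 3502 over the alternatives. The pericyte class carried the 9 EC markers at 4828 to 7654 CPM in sum, none of them at 0, and the part of this EC RNA in the pericyte levels was not tested. In the other clustering the pericytes carried these markers at 1643 to 3486 CPM, 7 genes were again called, and the differences were larger for Foxq1 (3.41), Fzd4 (3.18), Nkd1 (2.98) and Lef1 (2.20 against 1.44). The call for Apcdd1 (0.99 ± 0.33, adjusted p = 0.0204) was lost without CSD 2, HC 1 or HC 2 in turn (adjusted p from 0.0537 to 0.254) and in DESeq2 (adjusted p = 0.0908), and Fzd6 was called without CSD 2 (0.63, adjusted p = 0.0176).

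Levels were also taken in free RNA. Barcodes of at most 100 UMIs mostly carry RNA from broken cells, and there Lef1 was at 23.5 ± 4.82 CPM, Foxq1 at 23.1 ± 8.21, Nkd1 at 21.2 ± 3.12 and Fzd4 at 38.3 ± 5.55, and Apcdd1 and Tcf7 were at 2.36 ± 1.85 and 4.32 ± 1.23. The astrocyte values of Lef1 and Fzd4 lie close to these values, and the microglia values of Lef1 (3.43 ± 3.50) and Fzd4 (11.3 ± 2.80) lie below them. After each cell was thinned to 500 UMIs, 19.0% ± 3.81 of capillary EC had a Lef1 UMI, against 0.187% ± 0.208 of microglia, and 19.7% ± 2.60 had a Foxq1 UMI, against 0.202% ± 0.177 of microglia. Before thinning the Lef1 shares were 36.4% ± 6.42 and 0.633% ± 0.397, at median depths of 788 to 1160.5 UMIs per capillary cell and 1854 to 4759 per microglial cell.

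Along the vessel, the 10 genes did not share 1 pattern. In all, 5 were lower in arterial than in capillary EC, with 30.4% of the 4989 genes tested called in either direction in that comparison. Of the 4989, 766 were called as lower. Apcdd1 had the largest difference, at 49.1, 52.6, 40.9 and 77.6 CPM in capillary EC of CSD 1, CSD 2, HC 1 and HC 2 and 8.85, 15.3, 5.38 and 9.31 in arterial EC (log2 fold change -2.46 ± 0.36, SE, adjusted p = 8.23e-07). All 4 libraries were lower in arterial EC and the ranges did not overlap. These arterial values rest on few counts, with 10 Apcdd1 UMIs in 1121497 arterial UMIs over all libraries. Capillary EC had 172 in 3132724. The size of the Apcdd1 difference is therefore uncertain. In the other clustering and without CSD 1, Apcdd1 was too low to be tested.

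Nkd1 fell from 146, 135, 170.2 and 227 CPM in capillary EC to 47.2, 76.6, 72.6 and 121 in arterial EC (-1.09 ± 0.17, adjusted p = 2.62e-06). Fzd4 was at 284, 495, 281 and 267 CPM in capillary EC and at 189, 204, 177 and 102 in arterial EC (-0.87 ± 0.14, adjusted p = 7.70e-06). Lef1 was at 350.4, 513, 328 and 504 CPM in capillary EC and at 259.7, 266, 234 and 237 in arterial EC (-0.69 ± 0.14, adjusted p = 0.000117). Each of these 3 genes was lower in arterial EC in all 4 libraries. Tcf7 went the same way in all 4 libraries (70.5 ± 8.61 against 42.2 ± 6.54 CPM, -0.70 ± 0.23, adjusted p = 0.0183), but its call was lost without HC 1 (adjusted p = 0.101), without HC 2 (adjusted p = 0.0615), in DESeq2 (adjusted p = 0.0939) and in the other clustering (adjusted p = 0.0609). Arterial EC had a median of 1288 to 2695 UMIs per cell against 788 to 1160.5 in capillary EC, and the differences of the 4 other genes were also called among cells with at least 1000 UMIs.

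The other 5 genes did not pass in that comparison. Foxq1 differed by 0.02 ± 0.12 on the log2 scale (429.8 ± 52.2 CPM in capillary and 418 ± 77.6 in arterial EC), Adgra2 by 0.08 ± 0.19 (83.9 ± 11.9 and 86.3 ± 15.0) and Reck by 0.21 ± 0.17 (112 ± 12.5 and 124 ± 8.37). Axin2 and Fzd6 were lower in arterial EC in all 4 libraries, by -0.30 ± 0.18 (adjusted p = 0.218) and -0.37 ± 0.15 (adjusted p = 0.06). Without HC 1 the Fzd6 difference passed (-0.49, adjusted p = 0.033). With segments gated by markers cell by cell in place of clusters, Fzd6 (-0.71, adjusted p = 0.000694) and Adgra2 (0.51, adjusted p = 0.0471) passed, and the Nkd1 difference was -1.71.

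**Figure D2:**
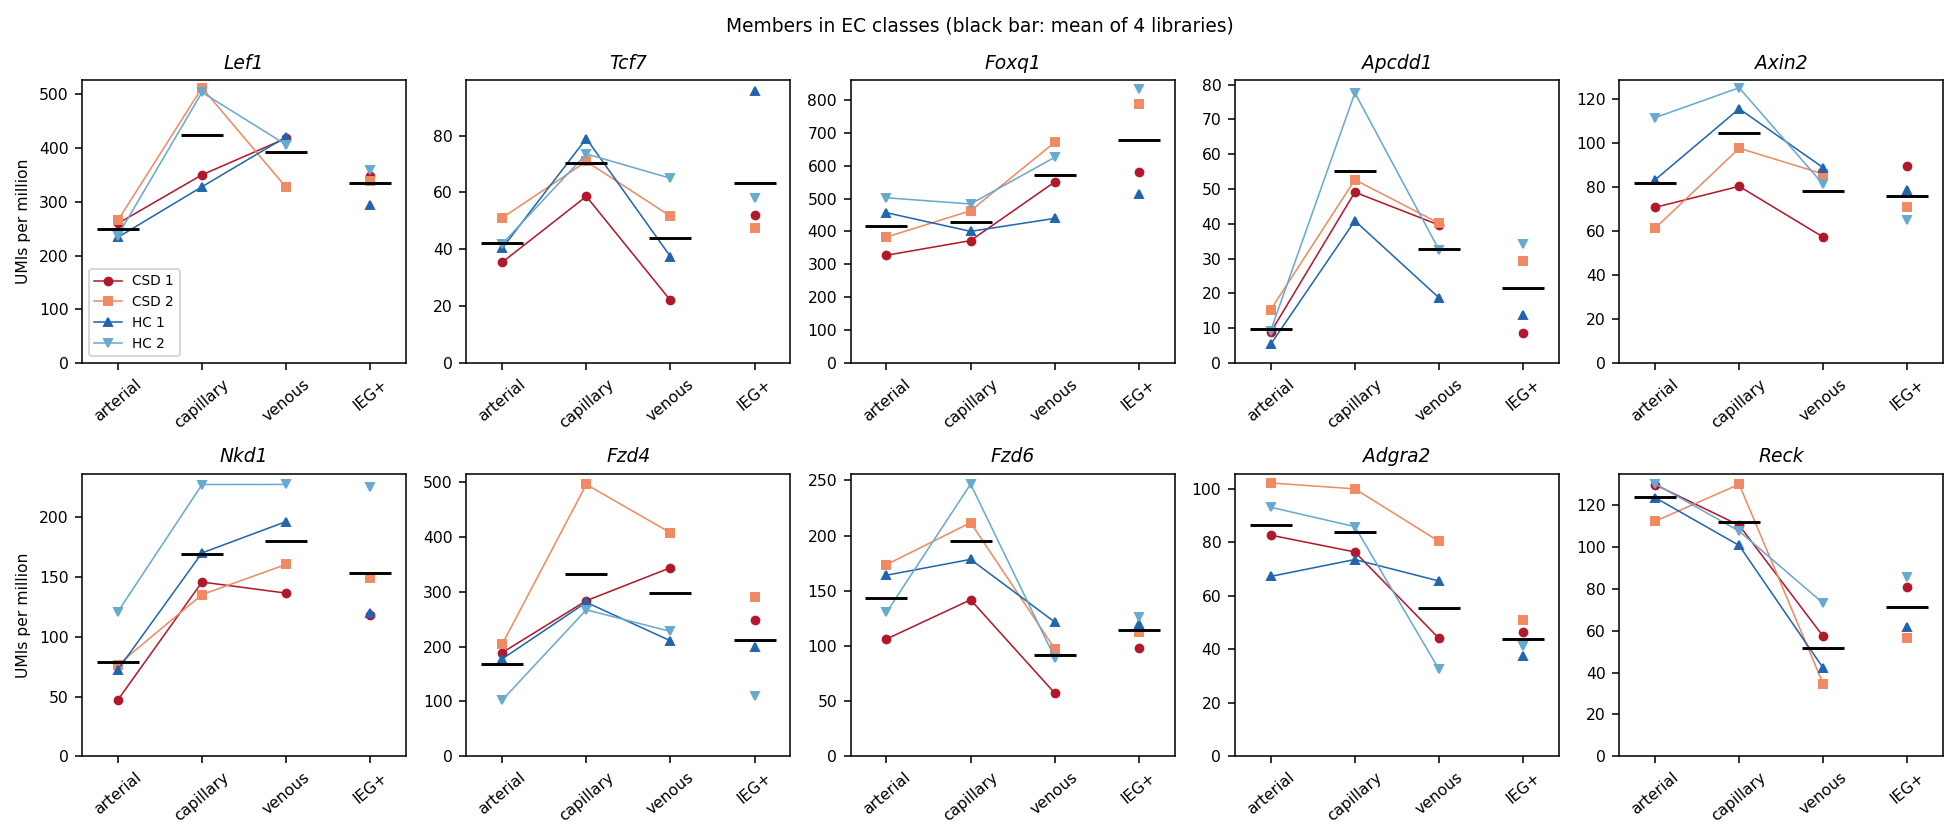
Level of each gene in CPM in arterial, capillary, venous and IEG+ EC, with 1 point per library, lines joining the 3 segments of a library, and black bars for the mean of 4 libraries. Apcdd1 peaks in capillary EC (55.1 ± 15.8) and Reck falls from arterial (124 ± 8.37) to venous EC (51.7 ± 17.1).

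In venous EC Reck and Fzd6 were lower and Foxq1 was higher than in capillary EC. Reck was at 57.3, 34.4, 42.1 and 73.1 CPM in venous EC, below its capillary values of 110.4, 130.0, 101 and 108 in every library (-1.08 ± 0.23, adjusted p = 0.000516). Fzd6, a Frizzled receptor also known from planar cell polarity, was at 57.3, 97.5, 122 and 89.4 CPM in venous and 142, 212, 178 and 247 in capillary EC (-0.99 ± 0.19, adjusted p = 8.73e-05). Foxq1 was higher in venous EC in all 4 libraries (551, 671, 439.8 and 626 against 372, 463, 400.4 and 484 CPM, 0.49 ± 0.12, adjusted p = 0.00323). These 3 genes were called in the comparison, in which 19.6% of all genes were. With the marker gate the Foxq1 difference was 0.12 (adjusted p = 0.602), and Tcf7 was called as lower (-1.01, adjusted p = 0.00825).

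Adgra2 was also lower in venous EC in 4 of 4 libraries, by -0.47 ± 0.24, but did not pass (adjusted p = 0.172). So were Tcf7 (-0.69, adjusted p = 0.0634), Axin2 (-0.33, adjusted p = 0.289) and Apcdd1, which did not pass either. Nkd1 was higher in venous EC in 3 of the 4 libraries (0.17, adjusted p = 0.515) and Fzd4 in 1 (-0.08, adjusted p = 0.762). Apcdd1, at 39.6, 40.2, 18.7 and 32.5 CPM in venous EC, differed from capillary EC by -0.62 ± 0.30 (adjusted p = 0.159). Lef1 differed by 0.00 ± 0.14 and was higher in venous EC in 2 of the 4 libraries.

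Between venous and arterial EC 7 of the 10 genes were called, beside 15.9% of all genes. Calls over all genes ran from 526 to 957 under the alternatives, against 795 here. Apcdd1 (1.84 ± 0.49, adjusted p = 0.00559), Nkd1 (1.26 ± 0.20, adjusted p = 7.39e-06), Fzd4 (0.79 ± 0.17, adjusted p = 0.000563), Lef1 (0.69 ± 0.16, adjusted p = 0.00113) and Foxq1 (0.46 ± 0.13, adjusted p = 0.0122) were higher in venous EC. Reck (-1.29 ± 0.25, adjusted p = 0.000139) and Fzd6 (-0.62 ± 0.21, adjusted p = 0.0411) were lower. Without CSD 1 4 of the 10 were called, since Foxq1 (adjusted p = 0.164) and Fzd6 (adjusted p = 0.162) no longer passed and Apcdd1 was too low to be tested. The Fzd6 call was also lost without each other library in turn (adjusted p from 0.0556 to 0.148), in DESeq2 (adjusted p = 0.0913) and with no filter on low counts (adjusted p = 0.0655), and the Foxq1 call without CSD 2 (adjusted p = 0.102). With the marker gate the Fzd6 difference turned to 0.21 (adjusted p = 0.59), the Foxq1 difference no longer passed (0.30, adjusted p = 0.12) and that of Apcdd1 was 3.29. The venous class held 37 to 43 cells per library, at a median of 1457 to 4399 UMIs per cell.

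The IEG+ EC are described without a test, since Foxq1 was seen among the leading genes of that cluster before the values were compared. They had 93 to 185 cells per library. Foxq1 was at 582, 789, 513 and 835 CPM there, above the capillary value of the same library in all 4. The receptors lay below it in all 4, with Fzd4 at 212 ± 77.7, Fzd6 at 98.4 to 127, Adgra2 at 44.0 ± 5.89 and Reck at 71.2 ± 14.3 CPM. Apcdd1 was at 21.4 ± 12.2 CPM against 55.1 ± 15.8 in capillary EC.

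Fenestrated EC, the leaky EC of the choroid plexus and circumventricular organs, offered a small comparison within EC. The class held 13, 3, 6 and 17 cells and 96481 UMIs in all, so it was too small for a test and intervals cover counting error only. Fzd4 had 25 UMIs there, or 259 CPM (95% exact Poisson interval 168 to 383), against 342 CPM over all capillary UMIs. Lef1 had 1 UMI (10.4 CPM, interval 0.262 to 57.7) against 429 CPM in capillary EC. Foxq1, Axin2, Nkd1, Tcf7 and Apcdd1 had none, which puts capillary EC at least 13.9-fold, 3.36-fold, 5.39-fold, 2.27-fold and 1.77-fold above the 3-count floor of 31.1 CPM. Fzd6, Adgra2 and Reck had 5, 2 and 3 UMIs.

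The question whether defeat changed this signaling was asked in EC from a clustering that also left out the 691 genes of the study's own list of differences. None of the 10 genes was called between CSD and HC in all EC (edgeR quasi-likelihood test over 9885 genes), beside 0.101% of all genes, and 1 was called by DESeq2. Shares over all genes are those of edgeR, and none is given for DESeq2. The DESeq2 calls here and below therefore stand without a share of all genes. Calls over all genes under the alternatives, DESeq2 among them, are given at the end as a range. At an unadjusted p under 0.05 in edgeR there was 1, Fzd4, beside 805 of the 9885 genes. Fzd4 was at 281 and 393 normalized CPM (scaled by the trimmed mean of M values) in CSD 1 and CSD 2 and at 227 and 192 in HC 1 and HC 2. The CSD values were both the higher ones, and the log2 difference of 0.68 ± 0.19 did not pass in edgeR (adjusted p = 0.314) but did in DESeq2 (0.68, adjusted p = 0.0204). It was 0.91 without CSD 1, where CSD 2, the library that stood apart, was the only CSD library left, and 0.40 without CSD 2.

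In capillary EC Fzd4 was at 326 and 462 in CSD and 285 and 241 in HC (0.59 ± 0.19, adjusted p = 0.268). There the difference was 0.32 without CSD 2 and 0.82 without CSD 1, each with a single CSD library left. In venous EC Fzd4 was at 357 and 435 against 229.6 and 234 (0.76 ± 0.29, adjusted p = 0.539). In arterial EC its values overlapped, at 173 and 257 against 176 and 123 (0.42 ± 0.35, adjusted p = 0.973). None of the 10 was called in capillary EC (0.583% of all genes called, with 2 of the 10 at an unadjusted p under 0.05 and 0 called by DESeq2). The same held in arterial EC for the 7 genes tested (0.0379%, 0 at an unadjusted p under 0.05, 0 by DESeq2) and in venous EC for the 9 tested (0.242%, 1 and 0). Over all genes, 744 of 8240, 149 of 2638 and 212 of 2893 were at an unadjusted p under 0.05 in capillary, arterial and venous EC. The venous class of this clustering held 11 to 23 cells per library, at a median of 3815 to 13211 UMIs per cell. Its capillary EC had a median of 836 to 1325, and the part of depth in the venous values was not tested.

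Among the other genes in all EC, Nkd1, Axin2 and Tcf7 had lower values in both CSD libraries, and no difference passed. Nkd1 was at 124 and 138 normalized CPM in CSD and 148 and 198 in HC (-0.40 ± 0.18, adjusted p = 0.621). Axin2 was at 83.7 and 85.0 against 93.0 and 99.7 (-0.19 ± 0.15, adjusted p = 0.781). Tcf7 was at 47.3 and 63.2 against 65.2 and 65.6 (-0.24 ± 0.18, adjusted p = 0.781). These 3 genes did not overlap between conditions with CSD lower, as did 18.7% of all genes, and Fzd4 did not with CSD higher, as did 20.2%. In capillary EC Axin2, Nkd1 and Tcf7 were again apart with CSD lower (19.4% of all genes), and Fzd4 and Reck with CSD higher (18.5%). In venous EC this held for Axin2 and Nkd1 (lower, 18% of all genes) and Fzd4 (higher, 18.7%), and in arterial EC for Axin2 (lower, 18%) and for Lef1 and Reck (higher, 16.5%).

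Apcdd1 (29.2 and 38.9 against 27.8 and 49.5), Lef1 (351 and 411 against 299 and 392), Foxq1 (427 and 561 against 438 and 531), Fzd6 (121 and 173 against 157 and 174), Adgra2 (62.7 and 86.0 against 65.8 and 70.1) and Reck (103 and 97.2 against 85.5 and 99.1) overlapped between conditions in all EC. The median log2 difference of the 10 genes was -0.07, beside 0.01 over all genes. Marker sums also moved with condition in these EC: venous markers were at 1856 and 2237 CPM in CSD and 1045 and 856 in HC, and immediate early gene markers at 11591 and 13247 against 9120 and 9553. Markers of astrocytes were at 503, 622, 325 and 585 CPM, of pericytes at 165, 108, 95.5 and 186, and of red blood cells at 28.3, 113, 1210.1 and 5.28. Their part in the Fzd4 values was not tested.

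**Figure D3:**
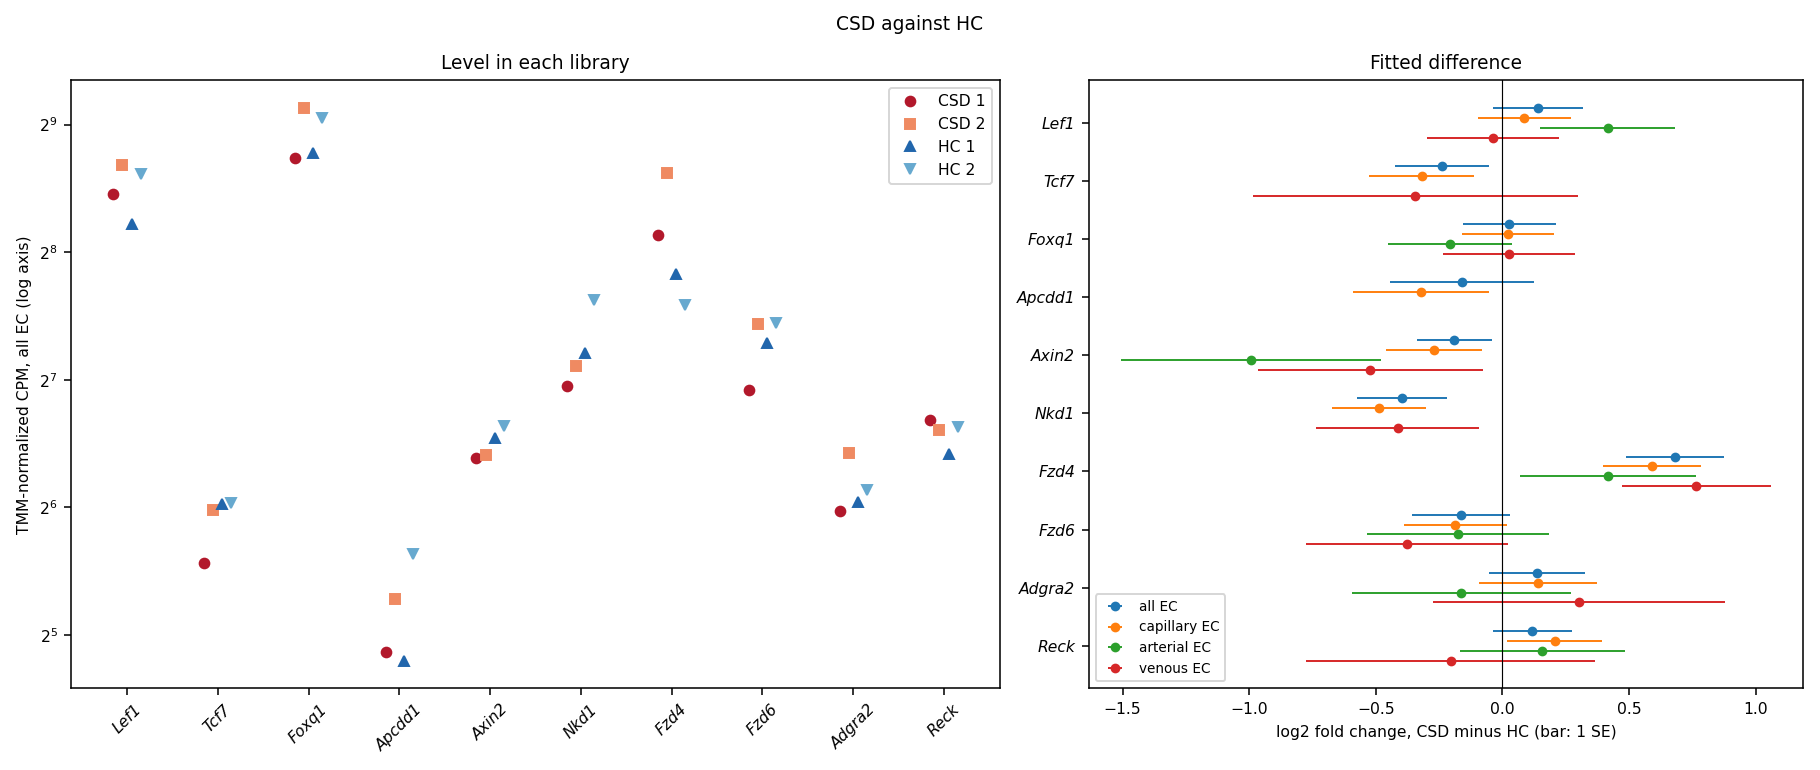
Left, normalized CPM of each gene in all EC of the 4 libraries on a log axis. Right, log2 difference CSD minus HC with bars of 1 SE in all EC, capillary, arterial and venous EC, where genes too low to be tested have no point; Fzd4 lies to the right of 0 in all 4 classes (0.42 to 0.76) and none of the differences passed.

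The effect of CSD was also compared between segments. In no pair of segments was the difference called for any of the 9 genes tested (edgeR, 0.116% of all genes called for arterial minus capillary, 0.0698% for venous minus capillary and 0.0233% for venous minus arterial), with 0, 0 and 0 of the 9 at an unadjusted p under 0.05 and 0, 0 and 0 called by DESeq2. Over all 4301 genes, 222, 204 and 226 were at an unadjusted p under 0.05 in these pairs. For Fzd4 the venous minus capillary difference was 0.28 ± 0.30, and for Nkd1 0.09 ± 0.33. Outside EC, 4 genes were tested in pericytes, 6 in arterial SMC, 2 in microglia and 6 in choroid plexus, and none was called (0%, 0%, 0% and 0.148% of all genes), with 2, 1, 0 and 0 at an unadjusted p under 0.05 and 0 called by DESeq2 in each. Over all genes, 119 of 3268, 196 of 6586, 144 of 9881 and 415 of 11465 were at an unadjusted p under 0.05 in those classes. None of the 10 passed the filter on low counts in astrocytes.

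The low p values outside EC belonged to Foxq1 and Axin2 in pericytes and Adgra2 in arterial SMC, named here after their values were seen. Foxq1 was at 106 and 95.4 normalized CPM in CSD pericytes and 27.8 and 23.1 in HC pericytes (1.96 ± 0.56, edgeR adjusted p = 0.902), but in the pericytes of the clustering used for levels the difference was 0.31 (adjusted p = 0.9999). The 9 EC markers summed to 3486 and 2211 CPM in these CSD pericytes and 1978 and 1643 in HC, and their part in the Foxq1 values was not tested. Axin2 was at 106 and 60.7 against 158 and 133 (-0.88 ± 0.39, edgeR adjusted p = 0.999). Adgra2 in arterial SMC was at 23.8 and 29.0 against 46.3 and 63.2 (-1.03 ± 0.32, edgeR adjusted p = 0.999). Conditions did not overlap for Foxq1 (CSD higher, 16.4% of all genes), Axin2 (lower, 15.2%) and Adgra2 (lower, 14.6%), nor for Fzd4 in microglia (lower, 12.1%) and Reck in choroid plexus (lower, 14.6%).

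Of 24 listed ligands 6 reached 20 CPM in a class, and all of them but Wnt5a were highest outside EC. Wnt7b was at 35.8 ± 17.8 CPM in astrocytes and 46.6 ± 18.3 in OPC against 2.24 ± 0.644 in capillary EC, and Ndp at 23.7 ± 11.3 in astrocytes and 35.5 ± 35.6 in OPC against 0.269 ± 0.537. Wnt7a had 10 UMIs in astrocytes (13.7 ± 11.5 CPM) and 6 in OPC. Wnt5a, a ligand mostly known from pathways that do not use β-catenin, was at 203, 166, 112 and 48.8 CPM in venous EC, against 23.2, 46.2, 20.4 and 24.5 in capillary EC and 23.6, 15.3, 8.07 and 0 in arterial EC. All 4 libraries were highest in venous EC (venous minus capillary 2.30 ± 0.26, adjusted p = 2.87e-09). Wnt4 was highest in ependymal cells (192 ± 40.8 CPM), Wnt5b in arterial SMC (89.0 ± 24.1) and Rspo3, an enhancer of the pathway, in fibroblasts, where its libraries ran from 7.42 to 350.2 CPM.

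Of 17 listed receptors outside the 10 genes, 11 reached 20 CPM in a class. The co-receptor Lrp6 was at 107 ± 10.3 CPM in capillary and 122 ± 4.02 in arterial EC, and Lrp5 was highest in capillary EC (39.4 ± 21.2). Tspan12, a partner of Fzd4, was at 79.5 ± 28.6 CPM in OPC and 67.7 ± 18.3 in EC with no segment. Fzd2 and Lgr4 were highest in astrocytes (185 ± 56.2 and 65.9 ± 26.1), Fzd3 in ependymal cells (227 ± 38.6), Fzd7 in fibroblasts (42.3 ± 28.0), Fzd9 in OPC (67.4 ± 25.6) and Ryk in pericytes (198 ± 3.53). Fzd1 in astrocytes (26.3 ± 20.3) and Ror1 in fibroblasts (25.4 ± 14.9) were near the limit.

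Of 14 listed inhibitors 8 reached 20 CPM. Notum, an enzyme that removes the lipid Wnt ligands need, was highest in capillary EC, at 65.4, 115, 110.3 and 124 CPM, against 20.7, 51.1, 53.8 and 55.8 in arterial and 17.6, 22.9, 32.8 and 40.6 in venous EC. It was lower in both in every library (-1.15 ± 0.21, adjusted p = 2.74e-05, and -1.80 ± 0.27, adjusted p = 1.45e-06). Sostdc1 was at 1104 ± 39.9 CPM in choroid plexus. Sfrp1 and Sfrp5 had their highest means there too (60.6 ± 5.18 and 29.5 ± 4.22). Close to these were Sfrp1 in fibroblasts (59.8 ± 29.4) and Sfrp5 in ependymal cells (28.4 ± 7.50). Dkk3 was highest in ependymal cells (121 ± 39.9), Sfrp4 in fibroblasts (56.3 ± 60.1) and Rnf43 in OPC (64.8 ± 49.2). Znrf3 was about equal in astrocytes (30.0 ± 21.7, lowest library 0) and capillary EC (29.4 ± 6.53).

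**Figure D4:**
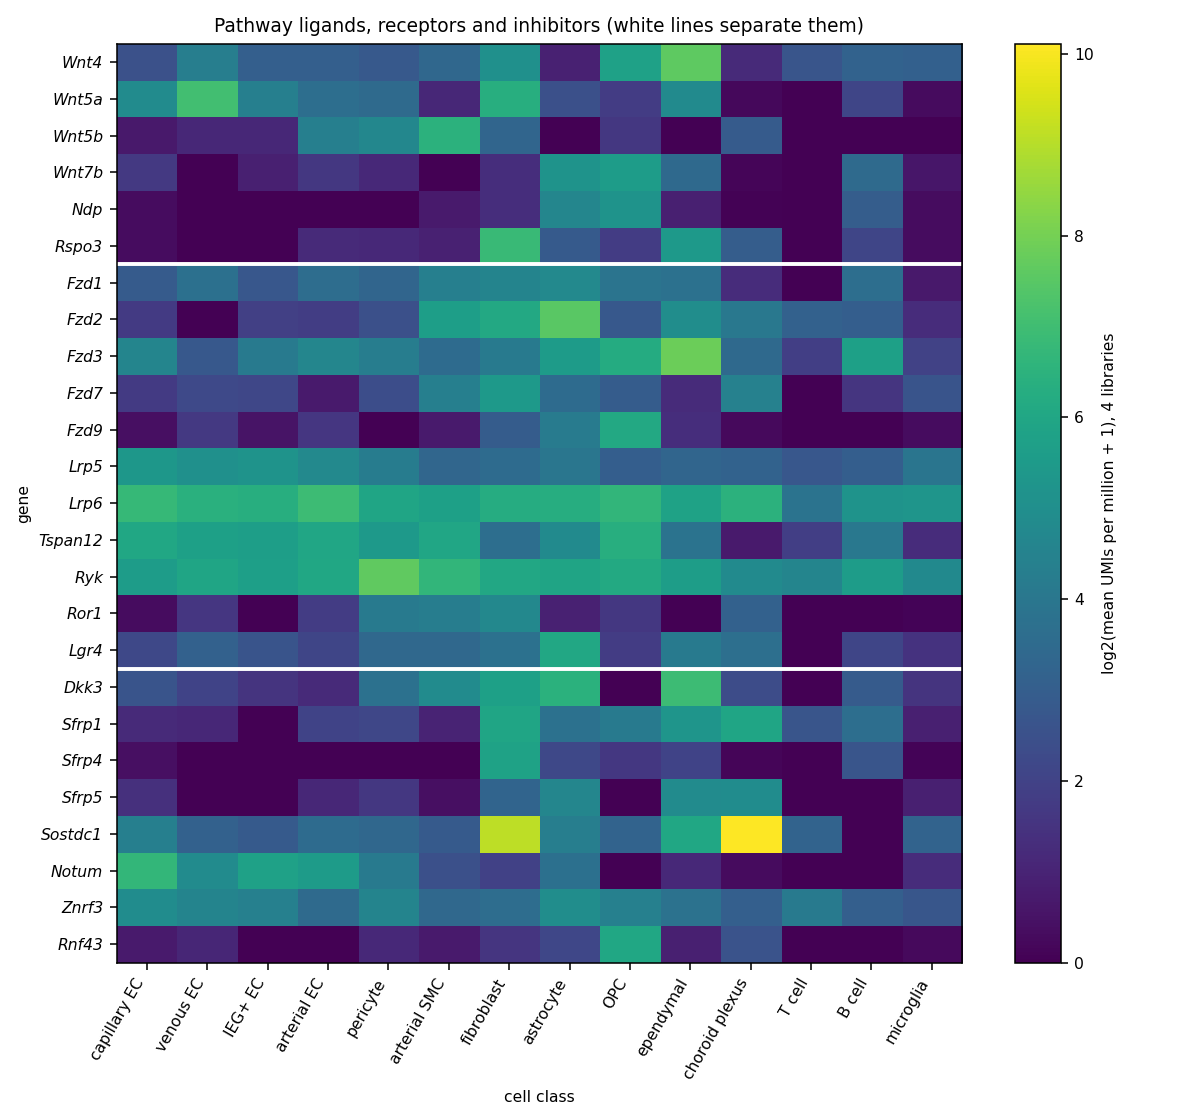
Mean level over 4 libraries, as log2(CPM + 1), of the ligands (top), receptors (middle) and inhibitors (bottom) that reached 20 CPM in at least 1 class, across 14 cell classes, with white lines between the groups. Wnt5a stands out in venous EC (133 ± 67.1 CPM) and Notum in capillary EC (104 ± 26.1).

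Of the 85 other pathway genes, 23 were tested between segments. In arterial against capillary EC 2 were higher and 7 lower, beside 30.4% of all genes called. Sox17, a transcription factor of arterial EC, rose by 1.02 ± 0.12 (adjusted p = 8.65e-09) and Bcl9l, a β-catenin co-activator, by 0.96 ± 0.33 (adjusted p = 0.0228), and Notum and Wnt5a (-1.14 ± 0.42, adjusted p = 0.0343) were among those lower. In venous against capillary EC, with 19.6% of all genes called, 1 was higher, Wnt5a, and 4 were lower, among them Notum, Foxf2 (-0.61 ± 0.20, adjusted p = 0.0257) and Apc, a scaffold of the destruction complex (-0.60 ± 0.21, adjusted p = 0.0399). In venous against arterial EC, with 15.9% called, 4 were higher, led by Wnt5a (3.44 ± 0.36, adjusted p = 8.30e-10) and Tle1, a co-repressor bound by TCF/LEF factors (0.75 ± 0.23, adjusted p = 0.0167), and Sox17 was lower (-1.09 ± 0.15, adjusted p = 1.67e-07). Between CSD and HC, 42 of the 85 were tested in all EC and none was called (0.101% of all genes were). At an unadjusted p under 0.05 there were 7, beside 805 of 9885 genes, and 1 was called by DESeq2. That gene was Slc2a1, a glucose transporter of the barrier (0.73, DESeq2 adjusted p = 0.0001, and edgeR adjusted p = 0.193). DESeq2 also called Slc2a1 in capillary EC (0.72, DESeq2 adjusted p = 0.000928, and edgeR adjusted p = 0.185) and in venous EC (0.88, DESeq2 adjusted p = 0.00152, and edgeR adjusted p = 0.215), and no other of the 85 in either.

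The genes outside the pathway lists whose level most resembled the mean of the 10 over 61 sums of a named class and library were Itm2a (Pearson r = 0.96), AU021092 (0.94), Degs2 (0.94), Jcad (0.94) and Fn1 (0.94), of 11187 genes with at least 200 UMIs. Itm2a is 1 of the 9 markers that named EC. Over the 12 sums of capillary, arterial and venous EC they were Slco1a4, a transporter of the blood-brain barrier (0.93), Hmcn1 (0.92), Ogt (0.91), Luc7l2 (0.91) and Ttc14 (0.91), of 4084 genes. Among the 10, the correlation with their own mean over these 12 sums ran from 0.10 for Reck, 0.19 for Foxq1 and 0.27 for Adgra2 to 0.82 for Tcf7. The sums share libraries and depth, and these values are descriptions.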

How the data were processed

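Single-cell RNA sequencing libraries (10x Genomics Chromium 3′ kit V3.1) were analyzed from 2 CSD and 2 HC pools after 14 days. The files deposited by the authors hold UMI counts as whole numbers, not normalized, for all barcodes, with no cells called. The submitters' processing notes name Cell Ranger 4.0, GRCm38 and mm10, and the matrix headers carry version 3.1.0. No column lacked a sample.

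Barcodes with at least 500 UMIs, at least 250 genes and at most 25% mitochondrial UMIs were kept. Cells were normalized with SCTransform (sctransform 0.4.2), integrated in Seurat 5.3.0 (R 4.3.3) over 3000 variable genes and clustered on 40 components at resolution 1.6 with seed 42. The clustering for levels and segments left out 95 pathway genes, and that for CSD against HC also left out the 691 genes of the study's list of differences, which was chosen on these samples. Clusters were named from marker lists, with limits set after their leading genes were seen. Doublets were marked with Scrublet in scanpy 1.11.5 and kept. It marked 0.0981% of CSD 1 and 0.431% of CSD 2, so it found few there.

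Counts were summed per class and library and tested with edgeR 4.0.16 (quasi-likelihood, filterByExpr, trimmed mean of M values, two-sided, Benjamini-Hochberg over all genes tested, threshold 0.05). Segments and classes were compared with the library as a block. Steps were tested on simulated data with 200 changed genes. For CSD against HC in all EC, 70% of changes of 2-fold and 100% of 4-fold were called among 9239 and 9234 genes. For the venous minus capillary difference in the CSD effect they were 8.5% and 68% among 4379 and 4417 genes. These shares hold for the simulated counts with their 200 changed genes. In the data themselves, 10 of 9885 genes were called between CSD and HC in all EC. How often a real change in the Wnt genes studied here would be called was not tested. Alternatives were DESeq2 1.42.0, its size factors, no filter, at least 1000 UMIs per cell, doublets left out, a complexity filter of 0.8, the other clustering, a marker gate per cell, each library left out and a replicate block. The study compared cells with a Wilcoxon test, but cells of 1 library are not replicates. Poisson intervals are at 95%, a count of 0 was bounded at 3 counts, and both cover counting error only. Both use CPM that were not scaled by the trimmed mean of M values.

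The 10 genes, the pathway lists and the markers were chosen with earlier results of these data known. Genes named beside the 10 were pathway ligands, receptors and inhibitors at 20 CPM or more in a class, pathway genes called between CSD and HC in EC, up to 5 called pathway genes per segment comparison with the largest fold, and the 5 genes outside the lists most alike by Pearson r of log2(CPM + 10). The lists of signal transduction, nuclear and endothelial target genes are given only as counts and by those names. The values of 1 gene that these rules select are not reported here.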

Additional observations from a re-analysis of the deposited data

How the results depend on the processing

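Between CSD and HC, the count of the 10 genes called changed from 0 to 1 in all EC with DESeq2 and with no filter on low counts. It did so in capillary EC with a replicate block. The gene was Fzd4 each time, and its log2 difference in all EC ran from 0.40 to 0.91 over the alternatives. With 1 library left out the count ran from 0 to 1 in all EC and in capillary EC and from 4 to 6 of 7 between venous and arterial EC, where the lone library of a condition is assumed to vary like the others. Over all genes the calls between CSD and HC in all EC were 10, and 7 to 541 under the alternatives, and in capillary EC 48, and 24 to 391. Between arterial and capillary EC 3 of the 10 were called with the other clustering, against 5, since Tcf7 did not pass and Apcdd1 was too low to be tested. Over all genes the calls between arterial and capillary EC were 1516, and 901 to 1593 under the alternatives. The venous minus arterial difference of Fzd6 turned to 0.21 with the marker gate. Other than Apcdd1 falling under the filter on low counts, the cause of these changes was not tested. Alternative values for single genes between CSD and HC numbered 1014, with the differences of the CSD effect between segments among them. Of these 1009 kept their side of the threshold, and 92 changed sign without being called in either. Between classes and segments 207 of 214 values of genes not called and 715 of 740 of called genes did so. Libraries share only a replicate number: deviations of same-numbered libraries correlated at 0.11 in all EC, 0.06 in capillary EC and 0.436 in microglia, and with the replicate block Fzd4 passed in capillary EC (0.58, adjusted p = 0.0323), where 206 genes were called in place of 48, and in all EC none of the 10 did. Depth limits fenestrated EC and the tests between CSD and HC, where none of the 10 could be tested in every class. Of the 10, 7 were tested in arterial EC, 4 in pericytes, 2 in microglia and 0 in astrocytes. Apcdd1 and Tcf7 were among those not tested in each of these classes.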
